A study of Mus musculus with 9 samples.

Results

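The genes described here are 10 that encode tetraspanins and other proteins of extracellular vesicle (EV) formation: Cd9, Cd63, Cd81, Cd82, Cd37, Cd53, Pdcd6ip, Tsg101, Rab27a and Flot1. They were taken by name from the 23337 genes of the count table, and all 10 passed the filter on low counts, as did 12553 genes in all. RNA was sequenced from CD11b+ bone marrow cells of male C57BL/6 mice, with 1 library per mouse and 3 mice in each of 3 groups. PBS mice received 100 µl of PBS by tail vein on Days 1, 3 and 5. EnzR EV mice received, on the same days and in the same volume, 10 µg of EV protein from EnzR CWR-R1 cells, an enzalutamide-resistant human prostate cancer line. The third group received the same EnzR EVs and, on Days 0, 2 and 4, 100 µl of HDL NPs, nanoparticles that mimic high-density lipoprotein and lower cellular cholesterol. The labels give the HDL NP dose as 1 µM, the study's methods give another concentration, and the groups are the same under both. All mice were of the same strain, their age is not in the labels, and no RNA-seq group received HDL NPs without EVs or EVs of non-cancer cells, so the effect of HDL NPs alone and that of EVs in general cannot be told apart from the treatments given. The EV proteins CD63, CD9 and Flotillin-1 served in the study to identify the injected vesicles, and the question here is what the recipient cells' own genes for these proteins did.

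Tetraspanins are proteins with 4 membrane-spanning segments that gather integrins, proteases and receptors into patches of the membrane, and several of them are abundant in EVs. EVs may come from the plasma membrane, as ectosomes do, or from endosomes, as exosomes do. Exosomes form when the membrane of a late endosome buds inward, with help from the ESCRT machinery, and are released when that endosome fuses with the cell surface. In myeloid cells the same organelles are close relatives of secretory granules: CD63 is a protein of lysosomes and of azurophil granules, and Rab27a serves granule release.

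The sequences shown first are those near the start sites of Cd63, on which the comparisons below turn, and of Cd37 and Cd53, the tetraspanins restricted to blood cells. All were read from RefSeq starts on GRCm38.p6, where 9 of the 10 genes had an entry, and are printed 5′ to 3′ on the strand of the gene. The capitals mark GAGGAAGT, a sequence of the kind bound by PU.1, the master transcription factor of myeloid cells, or its other strand ACTTCCTC. The Cd63 line holds the 250 bases before the start at chr10:128909095-128909344 on the plus strand, inside the annotated gene and outside every annotated exon, and it holds no match. The Cd37 line is chr7:45238846-45238875 and the Cd53 line chr3:106790125-106790154, both on the minus strand.
Cd63: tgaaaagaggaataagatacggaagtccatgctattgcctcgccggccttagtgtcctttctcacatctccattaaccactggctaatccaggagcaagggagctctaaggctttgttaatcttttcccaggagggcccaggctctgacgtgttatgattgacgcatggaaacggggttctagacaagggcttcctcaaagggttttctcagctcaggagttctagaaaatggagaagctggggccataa
Cd37: acccccccggaACTTCCTCtttctctgccg
Cd53: cactcagtctcACTTCCTCactcttctcgc
The Cd37 match begins 25 bases before the start and the Cd53 match at base 7 after it. GAGGAAGT was found on either strand in 3.20% of all windows of 300 bases around a start and in 2.44% of the 250-base stretches before it, in 32851 promoters. Among the other genes with an entry, Cd82 had 1 match, 225 bases before 1 of its 4 listed starts. CACGTG, an E-box, was found before the starts of Cd37, Pdcd6ip and Rab27a, against 6.02% of all promoters, and GGGCGG, a GC box, before those of Cd9, Cd81, Cd82, Cd37 and Rab27a, against 32.7%. The background shares are per start, while Rab27a and Cd82 have more than 1 listed start. The E-box and the GC box of Rab27a lay before different starts, and not every start of Cd82 had a GC box. All of these are matches of letters only, and binding was not measured.

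Total counts ranged from 2575776 to 18110561 per library. In 3 libraries Rn45s, the ribosomal RNA precursor that depletion should remove, took a large share of counts: PBS 1 (20.3%), EnzR EVs 1 (42.7%) and EnzR EVs 3 (14.2%). In the other 6 libraries, which include all 3 with HDL NPs, it took 0.657 to 2.87%. These 3 libraries were also the shallowest, so the Rn45s share, depth and treatment are partly confounded. Differences of the 10 genes, and of other genes with an unadjusted p under 0.05 in the lists of the wider pathway, are given or plotted with and without them, and list medians and marker counts are from all 9 libraries. Without them a single EnzR EV mouse, EnzR EVs 2, remains in both comparisons that use this group, with 2 PBS mice and 3 HDL NP mice, and its spread is assumed to be that of the other groups. The genes' counts ran from 31 for Tsg101 in EnzR EVs 1 to 13287 for Cd53 in EnzR EVs 2, and 3 counts, taken as the limit of detection, corresponded to 0.160 to 1.65 CPM (counts scaled to library size and by TMM factors). Together the 10 genes took 0.0853 to 0.199% of a library's counts. The cells matched their label in Itgam, which encodes CD11b and lay between 1389 and 2006 CPM in all 9 libraries. The neutrophil genes S100a8 and S100a9 varied more, at 1746 to 38307 and 2229 to 51363 CPM, both lowest in EnzR EVs 1. Ly6g, another neutrophil marker, was not found in the counts. As the samples are bulk RNA, fewer cells of a type and less RNA per cell cannot be told apart.

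Levels were compared between genes as RPKM, that is per kilobase of exon. Cd53, a pan-leukocyte tetraspanin, was the highest of the 10 at 336 ± 79.1 RPKM (SD, n = 9 mice), 4.49 times Cd9, and it was above Cd9 in all 9 mice with no overlap of their ranges. Cd9, which associates with integrins and is abundant on platelets and eosinophils as well as on EVs, followed at 74.8 ± 11.7 RPKM, and Rab27a, the small GTPase that docks vesicles and granules at the cell surface, at 68.9 ± 6.55 RPKM. Flot1, which encodes the lipid raft scaffold Flotillin-1, lay at 49.4 ± 14.1 RPKM. Next came Cd82, a tetraspanin that restrains cell motility, at 32.1 ± 5.64 RPKM, and Cd81, a partner of many integrins, at 30.1 ± 3.94 RPKM. Pdcd6ip, which encodes the ESCRT adaptor ALIX, lay at 28.4 ± 3.74 RPKM and Cd37, a leukocyte tetraspanin, at 22.6 ± 4.71 RPKM. Cd63 was 9th of the 10 at 15.3 ± 6.01 RPKM, and Tsg101, the ESCRT-I subunit that recognises ubiquitinated cargo, was lowest at 8.60 ± 1.20 RPKM, so that the genes spanned 39.1-fold. These values and the order depend on the length used. That of Cd63, 3682 bases, joins the exons of 6 transcripts, and a shorter transcript in use would raise its value.

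The ranges over 9 mice overlapped for every pair of neighbours in this order other than Cd53 and Cd9. Within a mouse the order was steadier: Rab27a exceeded Flot1, and Cd63 exceeded Tsg101, in 9 of 9 mice, while Cd9 exceeded Rab27a in 7 and Cd82 exceeded Cd81 in 6. In the 3 PBS mice alone, the neighbours whose ranges overlapped were Cd9 with Rab27a, Flot1 with Cd82 and Cd82 with Cd81.

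**Figure D1:**
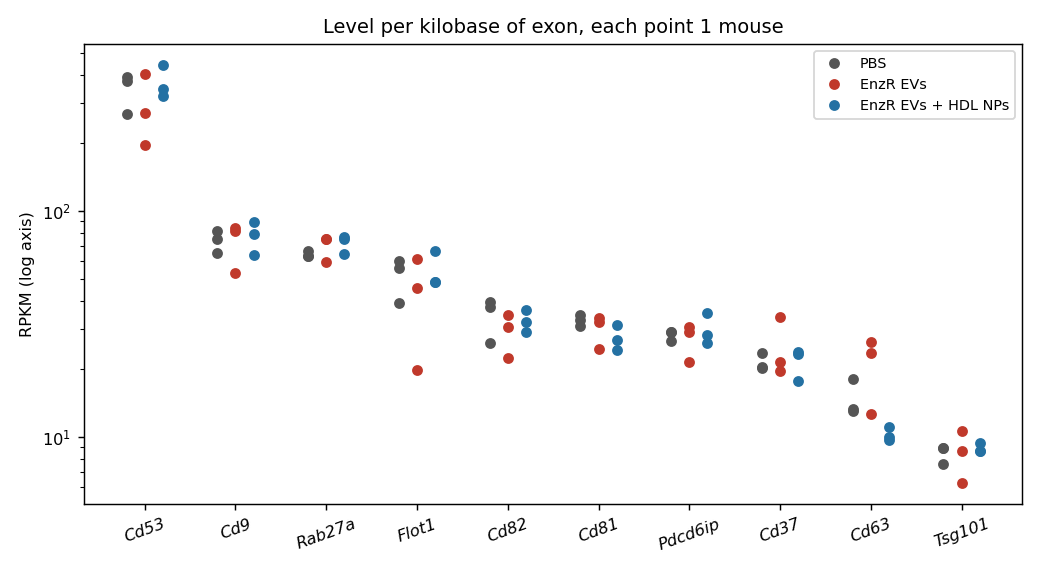
Level of each of the 10 genes in RPKM (vertical log axis), with 1 point per mouse coloured by group and genes ordered by their mean over 9 mice. Cd53 lies above every other gene at 196 to 444 RPKM, Tsg101 is lowest in mean at 8.60, and Cd63 spreads from 9.71 to 26.2.

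Against PBS, none of the 10 genes changed with EnzR EVs by edgeR's quasi-likelihood test at an adjusted p under 0.05 (percent called among all genes 0), and none had an unadjusted p under 0.05, where 436 of 12553 genes (3.47%) did. DESeq2, which called 8 genes (0.0567%), and limma's voom, which called none, also called none of the 10, and neither did edgeR with the replicate number as a block, which called 1 gene (0.00797%), or without the 3 Rn45s-rich libraries (0.0773%, from 1 EnzR EV mouse against 2 PBS mice). Voom with sample quality weights called 1990 genes (15.9%), and with them Cd63, Cd37 and Cd53 with adjusted p of 0.0162, 0.0217 and 0.0486. Of the 10, 4 had a fold change above 1 and 6 below, with a median log2 fold change of -0.037 against -0.027 over all tested genes, and their median absolute log2 fold change was 0.17 against 0.22. None of the 10 separated the 3 EnzR EV mice from the 3 PBS mice, where 7.96% of tested genes did so in one direction or the other.

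Cd63 had the largest difference of the 10 in this comparison. It read 66.2, 49.0 and 48.0 CPM in PBS mice 1 to 3 and 96.6, 46.6 and 86.9 CPM in EnzR EV mice 1 to 3. EnzR EV mouse 2 thus lay below all PBS mice, and the groups overlapped. The log2 fold change was 0.48 ± 0.26 (SE), with a 95% interval from -0.088 to 1.06 and an adjusted edgeR p of 0.928. The high values were those of the Rn45s-rich libraries: without these 3 libraries, where 46.6 CPM in 1 EnzR EV mouse is set against 49.0 and 48.0 CPM in 2 PBS mice, it was -0.055.

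The other genes identifying the injected vesicles overlapped in the same way. Cd9 read 134, 167 and 154 CPM with PBS and 108, 172 and 167 CPM with EnzR EVs, a log2 fold change of -0.016 ± 0.21 (SE). Flot1 read 113, 173 and 162 CPM with PBS and 57.1, 178 and 132 CPM with EnzR EVs, and its 2 lowest values of the 9 libraries were those of EnzR EVs 1 and PBS 1, the libraries with most Rn45s. Its log2 fold change was -0.27 ± 0.34 (SE), and without the 3 Rn45s-rich libraries it was 0.092, again from 1 EnzR EV mouse.

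Among the leukocyte tetraspanins, Cd53 read 469, 682 and 659 CPM with PBS and 341, 707 and 472 CPM with EnzR EVs, again with PBS 1 beside the lower EnzR EV libraries. Cd37 read 82.5, 71.7 and 70.9 CPM with PBS and 69.1, 75.3 and 120 CPM with EnzR EVs, where EnzR EV mouse 3 alone stood above the PBS mice. Leaving out that library turned its log2 fold change from 0.24 to -0.060. Cd81 (88.7, 94.3 and 100 CPM with PBS, 70.2, 92.6 and 96.6 CPM with EnzR EVs) and Cd82 (78.1, 119 and 113 CPM with PBS, 66.9, 104 and 92.1 CPM with EnzR EVs) overlapped between the groups. Both read lower with EnzR EVs than in the PBS library of the same number, for all 3 numbers, but whether the number pairs the mice is not known. With the replicate number as a block their log2 fold changes were -0.13 and -0.23, with adjusted edgeR p of 0.819 and 0.739.

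The budding and docking genes differed by at most 0.12 on the log2 scale between these groups. Pdcd6ip read 201, 201 and 183 CPM with PBS and 148, 212 and 201 CPM with EnzR EVs. Tsg101 read 20.6, 24.3 and 24.3 CPM with PBS and 17.0, 29.0 and 23.5 CPM with EnzR EVs. Rab27a, the steadiest of the 10 with a coefficient of variation of 2.98% over PBS mice, read 246, 259 and 246 CPM with PBS and 232, 290 and 292 CPM with EnzR EVs. Leaving Cd63 aside, the 95% intervals of the 9 other genes ran from -1.02 to 0.74 at their widest on the log2 scale.

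**Figure D2:**
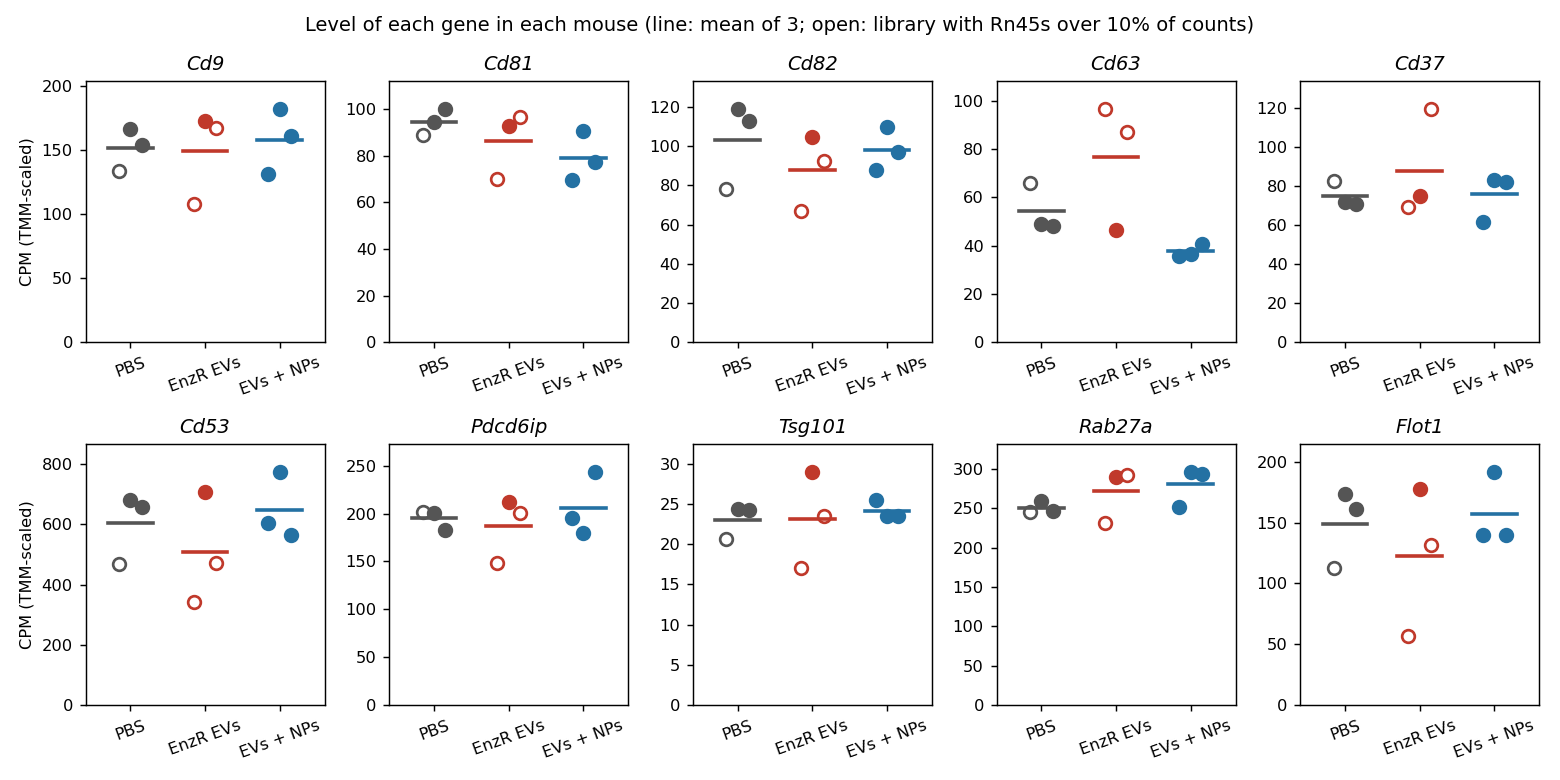
TMM-scaled CPM (vertical axis, from 0) of each of the 10 genes in each mouse by group, with 1 point per mouse and a line at the mean of 3; open points are the libraries with Rn45s over 10% of counts. Only Cd63 separates a group: its HDL NP mice lie at 35.7 to 40.7 CPM, below the 6 other mice at 46.6 to 96.6 CPM.

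With HDL NPs added to EnzR EVs, Cd63 was the gene that stood apart. It read 35.7, 36.7 and 40.7 CPM in the 3 mice, 37.7 ± 2.6 CPM (SD, n = 3), against 54.4 ± 10.2 CPM with PBS and 76.7 ± 26.5 CPM with EnzR EVs alone. All 3 HDL NP mice lay below all 6 other mice, which held for 271 of the 12553 tested genes (2.16%). Relative to EnzR EVs the fold was 0.497 (95% interval 0.333 to 0.741), a log2 fold change of -1.01 ± 0.26 (SE) with an unadjusted edgeR p of 0.00278, 16th smallest of the 12553. Its rank moved from 1 (without EnzR EVs 2) to 841 (without the 3 Rn45s-rich libraries) over 18 alternatives, and was 111 with the replicate block, 99 without EnzR EVs 3 and 91 without the 1st HDL NP mouse. It did not pass adjustment, with an adjusted edgeR p of 0.461, and the adjusted p ranged from 0.0474 to 0.958 over 18 alternatives. The exact permutation test gave a two-sided p of 0.1, the smallest that 3 against 3 mice allow.

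In that comparison edgeR called none of the 10 genes at an adjusted p under 0.05 (percent called 0), and DESeq2 (1 gene called, 0.00532%) and voom called none of them either. Cd63 was the 1 gene of 10 with an unadjusted p under 0.05, where 6.97% of all tested genes were lower and 3.58% higher at that level. It was also the 1 gene of 10 whose groups did not overlap, against 8.58% of all tested genes lower and 8.99% higher. One gene in 10 is thus near the background share. The only setting that called Cd63 was voom with sample quality weights, which called 653 genes (5.20%) and gave it an adjusted p of 0.0474.

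Against PBS the log2 fold change of Cd63 with EnzR EVs and HDL NPs was -0.52 ± 0.26 (SE), with a 95% interval from -1.09 to 0.043 and an adjusted edgeR p of 1.00. The groups did not overlap, as for 6.21% of tested genes in that direction and 6.96% in the other. The comparisons with and without HDL NPs share the PBS mice, and both comparisons of HDL NPs share the HDL NP mice, so their values are not independent. The exact permutation p was again 0.1, and edgeR called none of the 10 genes (percent called 0, with 2.13% of all genes and none of the 10 at an unadjusted p under 0.05). DESeq2 (0.0604%), voom, and voom with sample quality weights (0.0797%) called none of the 10 either.

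The size of the Cd63 difference rested on the Rn45s-rich libraries. Cd63 read 66.2 to 96.6 CPM in the 3 libraries rich in Rn45s and 35.7 to 49.0 CPM in the 6 others, a ratio of means of 1.95 without overlap, and 15.5% of tested genes were likewise higher there. Among the 6 other libraries, EnzR EVs 2 read 46.6 CPM, PBS 2 and 3 read 49.0 and 48.0 CPM, and the HDL NP libraries read 35.7 to 40.7 CPM, so the HDL NP mice stayed lowest. In the fit on those 6 libraries the log2 fold change was -0.31 against EnzR EVs, where a single EnzR EV mouse remains, and -0.36 against PBS. Neither passed adjustment, where 1 gene (0.00773%) and 0 genes did. The part of ribosomal RNA carry-over in the difference was not tested beyond these values.

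**Figure D3:**
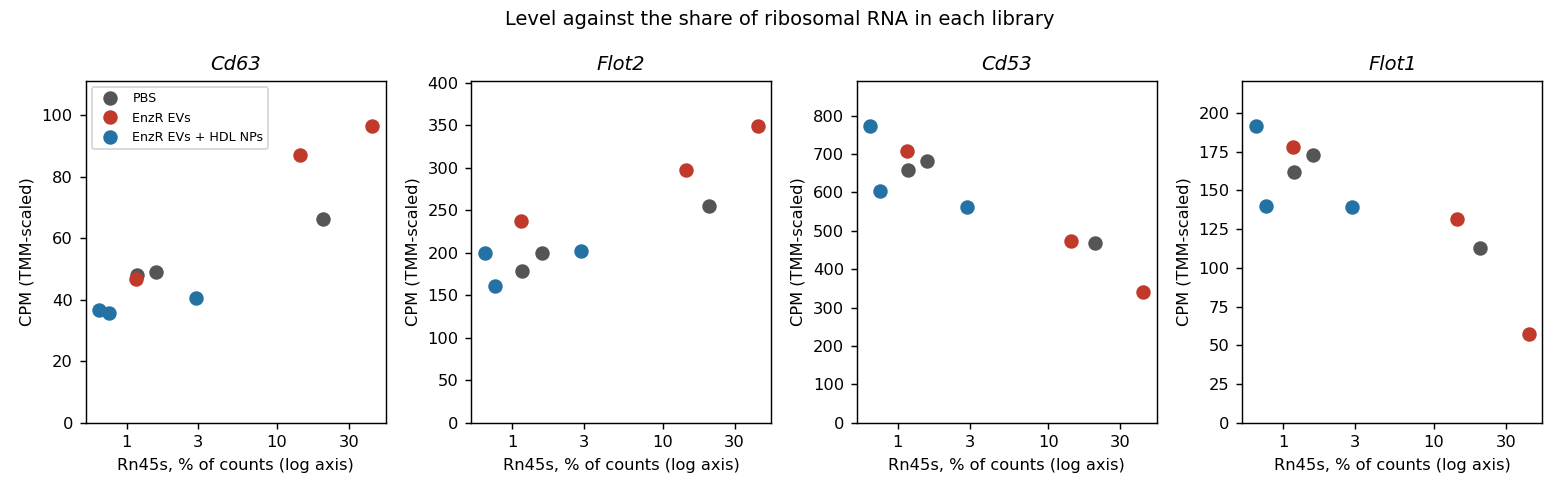
TMM-scaled CPM of Cd63, Flot2, Cd53 and Flot1 (vertical axes, from 0) against the percent of each library's counts on Rn45s (log axis), with 1 point per library coloured by group. Cd63 and Flot2 are higher, and Cd53 and Flot1 lower, in the 3 libraries above 10%, among which is 1 PBS library.

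Cd53 and Flot1 ran the other way along the same split. Cd53 lay at 341 to 472 CPM in the Rn45s-rich libraries and 563 to 774 CPM in the others, and Flot1 at 57.1 to 132 CPM against 140 to 192 CPM, with no overlap for either, as for 17.9% of tested genes. The remaining 7 genes overlapped. The summed level of 14 myeloid markers was 33427 to 70291 CPM in the Rn45s-rich libraries and 85402 to 150301 CPM in the others. The gap rested on S100a8 and S100a9: without them the sum of the other 12 was 29452 to 50061 CPM against 43949 to 60631 CPM, which overlap. Of the 14, S100a8, S100a9 and Ly6c2 were lower without overlap in the Rn45s-rich libraries, Mpo was higher, and 10 overlapped (genes named after their values were seen). By group the sum of all 14 was 60378 to 118819 CPM with PBS, 33427 to 128745 CPM with EnzR EVs and 85402 to 150301 CPM with HDL NPs.

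The other 9 genes showed little difference when HDL NPs were added. Cd9 read 131, 182 and 161 CPM with HDL NPs, and its values overlapped those of both other groups. Flot1 read 140, 192 and 140 CPM and Cd53 603, 774 and 563 CPM, which put the log2 fold changes against EnzR EVs at 0.34 ± 0.34 (SE) and 0.35 ± 0.27 (SE). Both turned negative without the 3 Rn45s-rich libraries, at -0.18 for Flot1 and -0.13 for Cd53.

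Cd81 was the 2nd gene after Cd63 by size against PBS. It read 69.7, 90.4 and 77.4 CPM with HDL NPs, and the highest of these lay within the PBS range of 88.7 to 100 CPM. The log2 fold change was -0.25 ± 0.17 (SE), with a 95% interval from -0.64 to 0.13. Cd82 (87.5, 110 and 97.0 CPM) lay inside the PBS range of 78.1 to 119 CPM, and Cd37 (61.9, 83.4 and 82.1 CPM) overlapped both other groups.

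Of the budding and docking genes, Pdcd6ip read 195, 179 and 244 CPM with HDL NPs and Tsg101 25.5, 23.5 and 23.5 CPM. Rab27a read 251, 296 and 293 CPM, a log2 fold change of 0.16 ± 0.15 (SE) against PBS, with the lowest HDL NP mouse inside the PBS range of 246 to 259 CPM. Leaving Cd63 aside, the widest 95% intervals of the 9 genes ran from -0.68 to 0.82 against PBS and from -0.72 to 1.10 against EnzR EVs on the log2 scale. The median log2 fold change of all 10 was 0.062 against PBS and 0.060 against EnzR EVs, beside -0.0072 and 0.033 over all tested genes.

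**Figure D4:**
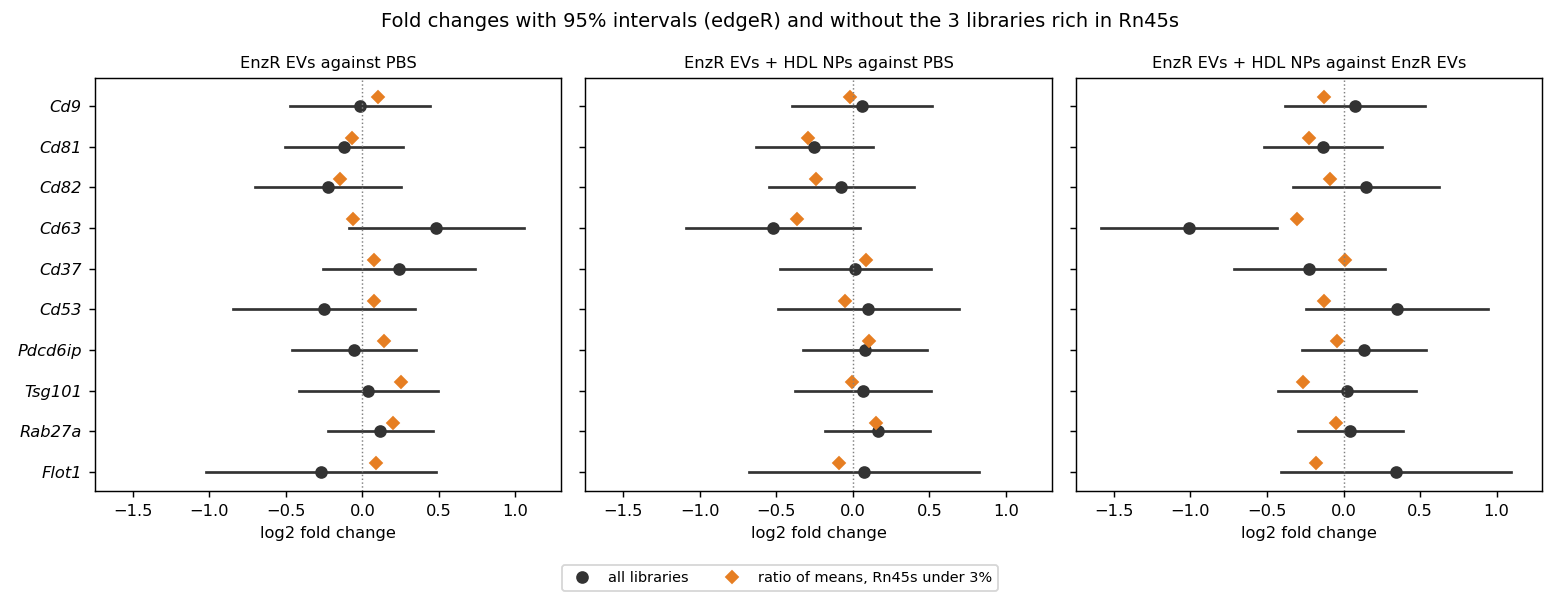
log2 fold change of each gene in the 3 comparisons (horizontal axis), with edgeR's 95% interval on all 9 libraries (dark points and lines) and the log2 ratio of means in the 6 libraries with Rn45s under 3% (orange diamonds). The Cd63 interval excludes 0 only for HDL NPs against EnzR EVs, from -1.58 to -0.43 before adjustment, and its diamond there lies at -0.30.

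The wider pathway was read from 6 lists of genes, and edgeR called no gene of any list in any comparison, nor did DESeq2 or voom. Voom with sample quality weights called 14 of the 84 tested list genes (16.7%) for EnzR EVs against PBS, beside 15.9% of all genes, and 5 (5.95%) for HDL NPs against EnzR EVs, beside 5.20% of all genes. At an unadjusted edgeR p under 0.05 there were 4 list genes for EnzR EVs against PBS, 0 for HDL NPs against PBS and 10 for HDL NPs against EnzR EVs, beside 3.47%, 2.13% and 10.6% of all genes. Of these, Flot2, Arf6 and Itga4 are among the 3 most abundant genes of their lists, and the others were named after their values were seen. All 10 of these log2 fold changes for HDL NPs against EnzR EVs were closer to 0 without the 3 Rn45s-rich libraries, where 1 EnzR EV mouse remains, and the values from that fit are given below.

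Flot2 encodes Flotillin-2, which forms hetero-oligomers with Flotillin-1. It read 255, 200 and 178 CPM with PBS, 350, 237 and 297 CPM with EnzR EVs and 161, 200 and 202 CPM with HDL NPs. The log2 fold change was 0.48 ± 0.20 (SE) for EnzR EVs against PBS and -0.65 ± 0.20 (SE) for HDL NPs against EnzR EVs, with adjusted edgeR p of 0.928 and 0.461. These directions were opposite to those of its partner Flot1 on all 9 libraries, but not without the 3 Rn45s-rich ones, where Flot1 at 0.092 and -0.18 had the same signs as Flot2 at 0.33 and -0.34. Like Cd63, Flot2 was highest in the Rn45s-rich libraries, at 255 to 350 CPM against 161 to 237 CPM. Unlike Cd63, EnzR EVs 2 kept it above the other low-Rn45s libraries, and the log2 fold change stayed between 0.28 and 0.64 against PBS, and between -0.81 and -0.34 for HDL NPs against EnzR EVs, over 18 alternatives. The flotillin and ceramide list had 6 tested genes, with medians of 0.080, -0.14 and -0.29 on the log2 scale in the 3 comparisons, and its other leaders were Stom (135 to 201 CPM), a raft protein, and Smpd1 (24.4 to 40.6 CPM), acid sphingomyelinase.

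Of the 25 other tetraspanins, 15 were tested. The highest were Tspan14, a partner of the protease ADAM10, at 109 to 142 CPM, Tspan2 at 50.2 to 73.5 CPM and Tspan32 at 37.9 to 59.5 CPM. Their medians were -0.12, -0.15 and 0.047 on the log2 scale. Tspan33 was at or below 2.64 CPM everywhere and had a log2 fold change of -1.78 ± 0.50 (SE) for EnzR EVs against PBS (-1.68 without the Rn45s-rich libraries). Its values in EnzR EVs 1 and 3, 1.65 and 0.355 CPM, were at the limit of detection of those libraries. Tspan31 had a log2 fold change of -0.86 ± 0.36 (SE) for HDL NPs against EnzR EVs (-0.36 without the Rn45s-rich libraries). The 10 untested ones, such as the urothelial Upk1a and Upk1b and the photoreceptor gene Prph2, were at most 1.65 CPM in any library.

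The ESCRT list, which holds the complexes that sort cargo and cut the vesicle neck, had 26 tested genes of 28, with medians of 0.074, -0.057 and -0.14. Its leaders were Vps4b, the ATPase that disassembles ESCRT-III, at 155 to 216 CPM, Chmp4b, the main ESCRT-III filament subunit, at 118 to 150 CPM, and Ist1 at 102 to 133 CPM, with no group apart. Chmp7 had a log2 fold change of 0.56 ± 0.22 (SE) with EnzR EVs and of -0.53 ± 0.22 (SE) when HDL NPs were added, and Mvb12a, listed under its older symbol Fam125a, one of -1.32 ± 0.44 (SE) for HDL NPs against EnzR EVs. Vps37a, an ESCRT-I subunit like Tsg101, went the other way at 0.49 ± 0.19 (SE). Without the Rn45s-rich libraries Chmp7 was at 0.080 and -0.070 in these comparisons, Mvb12a at -0.31 and Vps37a at 0.24. Without EnzR EVs 1 alone, Mvb12a was at -0.71 and Chmp7 at -0.27 for HDL NPs against EnzR EVs. Leaving out single replicates put Chmp7 between 0.30 and 0.79 for EnzR EVs against PBS.

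Among 11 genes around syntenin and ALIX, Sdcbp, which encodes syntenin, the adaptor that links ALIX to syndecans and binds CD63, read 257 to 501 CPM with no group apart. Arf6, a GTPase of the syntenin route, read 337, 246 and 229 CPM with PBS, 554, 256 and 322 CPM with EnzR EVs and 228, 247 and 258 CPM with HDL NPs. Its log2 fold change for HDL NPs against EnzR EVs was -0.62 ± 0.27 (SE) with an adjusted edgeR p of 0.461, and it lay between -0.67 and -0.072 over the settings that keep all replicates or drop the Rn45s-rich libraries. Leaving out single replicates put it between -0.87 and -0.25. Sdc3, the most abundant syndecan, read 52.1 to 113 CPM.

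The docking and release list had 18 tested genes of 23, with medians of -0.062, -0.011 and 0.038. Rab31 (170 to 260 CPM), Unc13d (140 to 231 CPM), which encodes the Rab27a effector Munc13-4, and Ralb (105 to 171 CPM) were the highest, and the SNARE gene Ykt6 had a log2 fold change of -0.43 ± 0.18 (SE) for HDL NPs against EnzR EVs (-0.11 without the Rn45s-rich libraries). Rab27b, the paralogue of Rab27a and also named after its values were seen, read 0.844 to 6.98 CPM.

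Of the 8 membrane partners of tetraspanins, all were tested, and their medians were -0.20, 0.053 and 0.23. Cd44, the hyaluronan receptor, read 525 to 1084 CPM, Itga4, an integrin chain that associates with CD81 and CD9, 239 to 440 CPM, and Adam10 107 to 237 CPM. For HDL NPs against EnzR EVs, Itga4 had a log2 fold change of 0.41 ± 0.18 (SE), Cd36, a scavenger receptor, 1.00 ± 0.35 (SE), and Igsf8, a direct partner of CD9 and CD81, -1.37 ± 0.45 (SE). Igsf8 read highest in the 3 Rn45s-rich libraries, at 68.0, 36.6 and 34.9 CPM. It was at -0.32 without them and at -0.83 without EnzR EVs 1 alone, and Itga4 was at 0.19 and Cd36 at 0.76 without the 3 libraries. Cd36 was also at -0.83 ± 0.35 (SE) for EnzR EVs against PBS, at -0.90 there without the 3 libraries and at -0.48 without PBS 3.

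**Figure D5:**
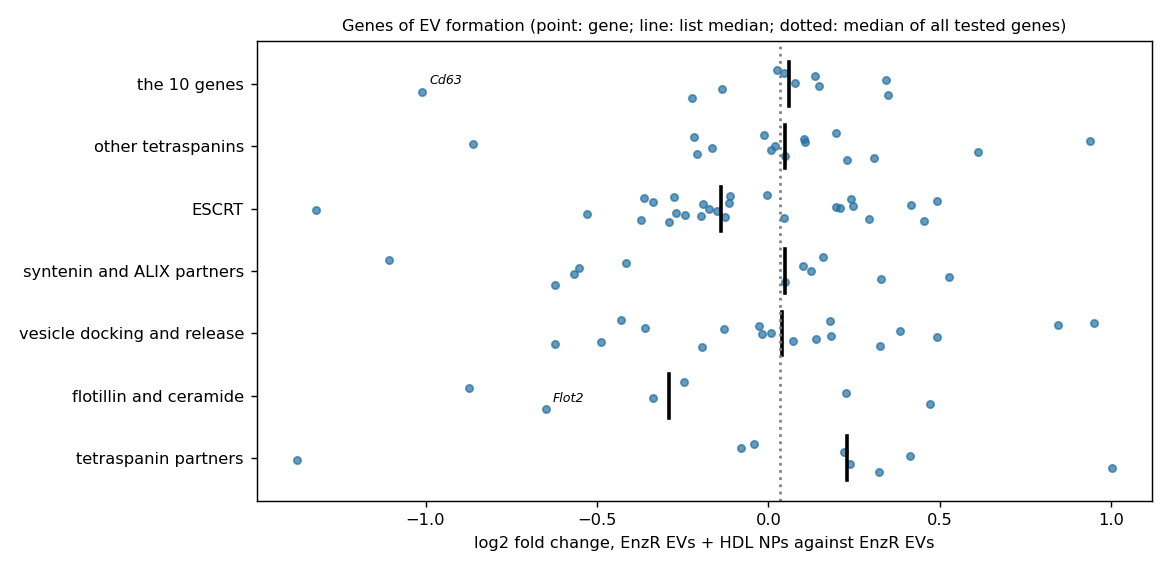
log2 fold change for EnzR EVs with HDL NPs against EnzR EVs (horizontal axis) of each tested gene of the 10 and of the 6 lists, with a bar at each list's median and a dotted line at the median of all tested genes, 0.033. Each list lies on both sides of 0, and no gene passed adjustment by edgeR. Voom with sample quality weights called Cd63 and 5 list genes.

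Summed markers of platelets, of basophils, mast cells and eosinophils and of T and NK cells overlapped between all 3 groups, and no gene of the marker lists reported here was called by edgeR, DESeq2 or voom. Voom with sample quality weights, which called 15.9% of all genes for EnzR EVs against PBS, called 9 of 13 tested macrophage, 4 of 14 myeloid and 3 of 11 erythroid markers there, all lower, 3 of 15 basophil, mast cell and eosinophil markers (1 higher) and 2 of 9 T and NK markers (Nkg7 higher, Klrd1 lower). It called Mpo, Elane, Nkg7 and Prg2, all lower, for HDL NPs against EnzR EVs, beside 5.20% of all genes, and no marker of these lists for HDL NPs against PBS, beside 0.0797%. Platelet and megakaryocyte markers, of interest because platelets are rich in CD9 and CD63, summed to 135 to 265 CPM with PBS, 133 to 225 CPM with EnzR EVs and 140 to 212 CPM with HDL NPs over 15 genes, led by Itgb3, Itga2b and Ppbp. Itgb3 took much of these sums at 79.0 to 125 CPM, while Ppbp ran from 0.352 to 38.2 CPM. Of the 14 tested platelet markers, 11 were lower for EnzR EVs against PBS and 11 for HDL NPs against PBS. Their median log2 fold changes there were -0.25 and -0.61, and 0.16 for HDL NPs against EnzR EVs. Over all tested genes the medians were -0.027, -0.0072 and 0.033. Basophil, mast cell and eosinophil markers, led by Prg2, Hdc and Epx, summed to 2753 to 3285, 2879 to 3974 and 1925 to 3902 CPM over 15 genes. T and NK markers, led by Nkg7, Gzma and Cd3d, summed to 57.9 to 69.0, 61.0 to 90.5 and 37.7 to 66.5 CPM. Their medians were -0.38, -0.27 and 0.066 on the log2 scale in the same 3 comparisons, and all 9 tested were lower for HDL NPs against PBS. Of the 12 T and NK markers, Nkg7 was higher without overlap in the Rn45s-rich libraries and 10 overlapped. Cd3g, named after its values were seen, did not pass the filter on low counts. It read 0.549 CPM in EnzR EVs 1, under the limit of detection of 1.65 CPM there, so its place along the split cannot be read. Along the same split, 5 of 13 macrophage markers (Emr1, Mertk, Siglec1, Spic and Mrc1) were lower without overlap and none higher, and of 15 basophil, mast cell and eosinophil markers Ear6, Ccr3 and Il5ra were lower and Gata2 higher, all named after their values were seen. One of 15 platelet markers was lower and 1 higher, and the erythroid, stromal and endothelial markers all overlapped. These counts stand beside 17.9% of all tested genes lower and 15.5% higher along the split. The part of these cells in the Cd63 difference was not tested.

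Macrophage markers, led by Slc40a1, Vcam1 and Axl, summed to 1224 to 2120, 1059 to 1267 and 1244 to 1367 CPM, erythroid markers, led by Hbb-bs, Tfrc and Slc4a1 and with Hba-a1 and Hba-a2 at 0 counts throughout, to 249 to 383, 167 to 218 and 127 to 436 CPM, with PBS above EnzR EVs in every mouse, and stromal and endothelial markers, led by Runx2, Cxcl12 and Pecam1, to 97.7 to 183, 103 to 165 and 114 to 152 CPM. At an unadjusted edgeR p under 0.05, 6 of 13 macrophage and 5 of 11 erythroid markers were lower with EnzR EVs than with PBS, and 1.92% of all tested genes were. With HDL NPs against PBS, 3 of the 13 macrophage markers (Cd163, Cd5l and Axl) and 1 of the 11 erythroid markers (Tfrc) were lower at that level, beside 2.13% of all genes in either direction, and the lists had median log2 fold changes of -0.42 and -0.42 beside -0.0072 over all tested genes. With HDL NPs against EnzR EVs the medians were 0.25 and 0.43 beside 0.033, and 1 macrophage marker was lower (C1qb) and 1 erythroid marker higher (Epb4.2) at that level, beside 6.97% of all genes lower and 3.58% higher. Among 14 myeloid and 9 T and NK markers tested, Mpo (log2 fold change -0.96) and Nkg7 (-1.14) were also lower at that level for HDL NPs against EnzR EVs. For EnzR EVs against PBS, Klrd1 (-1.18) was lower and Hdc (0.45) higher at that level, beside 3.47% of all genes in either direction. No platelet, stromal or endothelial marker was at that level in any comparison. Of the markers named here, Mpo, Klrd1, Cd163, Cd5l, C1qb and Epb4.2 were named after their values were seen.

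Likeness across the 9 libraries was described by Pearson's r of log2 CPM over all tested genes, where the points share depth and Rn45s content. The genes most like Cd63 were 1810008A18Rik (r = 0.98) and Daglb (0.98), and those most like Flot1 were Tkt (0.996) and Tnfaip8l2 (0.995). Cd53 was closest to Pqlc3 (0.99) and Usp22 (0.99), Cd9 to Myo1f (0.98) and Ezr (0.98), and Cd82 to Mob3a (0.98) and Limd2 (0.98). Cd81 was closest to Mon1a (0.95) and Zdhhc7 (0.94), and Cd37 to Vps52 (0.95) and the ESCRT-III gene Chmp5 (0.94). Pdcd6ip was closest to Lpp (0.97) and Crybg3 (0.95), Tsg101 to Ctnnb1 (0.98) and Twsg1 (0.98), and Rab27a to Rtn4 (0.97) and Kif3b (0.96).

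Between the 10 genes, Cd53 and Flot1 had r = 0.95 over 9 libraries and 0.98 over the 6 with Rn45s under 3%. Cd63 and Cd53 had r = -0.85 over 9 libraries and 0.13 over those 6, and Cd63 and Flot1 -0.75 and 0.28, so that these opposite courses were seen only with the Rn45s-rich libraries included. Cd81 and Cd82 had r = 0.67 and 0.93.

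By the GENCODE M21 annotation on GRCm38 (mm10), all 10 are protein-coding genes: Cd9 at chr6:125460266-125494791, Cd63 at chr10:128900989-128912822, Cd81 at chr7:143052739-143067934, Cd82 at chr2:93419111-93463140, Cd37 at chr7:45233632-45239115, Cd53 at chr3:106759921-106790149, Pdcd6ip at chr9:113651744-113708259, Tsg101 at chr7:46888949-46919969, Rab27a at chr9:73044854-73097629 and Flot1 at chr17:35823230-35832791. Counts cover whole genes, so exons and isoforms were not separated. Cd81, Cd82 and Cd37 overlap R74862, Gm10804 and Tead2 on the opposite strand, which had 343, 487 and 409 counts in all 9 libraries together. The strand setting of the counting is not given in the sources used here, so reads in those overlaps may belong to either gene. Processed pseudogenes of Cd9, Cd63 and Tsg101 are annotated but are not rows of the count table, so a part of their reads may have been lost or assigned to the parent gene.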

How the data were processed

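The files the authors deposited hold counts of reads for each gene, 1 file for each of 9 libraries, not normalized. Per the study's methods, stranded total RNA libraries were made after rRNA depletion, poor-quality and rRNA reads were filtered, and reads were aligned to mm10 with STAR and counted with htseq-count on a UCSC annotation. The submitters' processing notes name cutadapt 1.13, HTSeq 0.6.1p1 and DESeq2, and the strand setting is not given in the sources used here. Rn45s counts remained in every library.

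From the counts, edgeR 4.0.16 (R 4.3.3) was run with TMM normalization, its default filter on low counts and a robust quasi-likelihood fit of all 9 libraries with 1 coefficient per group. P-values were adjusted by Benjamini-Hochberg over the 12553 tested genes with a threshold of 0.05, and DESeq2 1.42.0 and limma 3.58.1 were alternatives. The common biological coefficient of variation was 0.259. CPM are TMM-scaled, log2 CPM have a prior count of 2, and RPKM divide CPM by GENCODE M21 exon length. Exact permutation tests were two-sided and took the difference of mean log2 CPM over every split of 3 against 3 mice. Reads carry no molecular identifiers, so the limit of 3 counts covers counting error only. The fit was tested on simulated data with less spread between libraries than here and without the Rn45s split, so that test does not cover these features of the data.

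Same-numbered libraries of EnzR EVs and PBS deviated together, with correlations of 0.47, 0.49 and 0.13 of their deviations from the group means, against -0.53 to 0.43 for libraries of different number (EnzR EVs 3 with PBS 2 at 0.16). The labels state no pairing, and these values cannot establish one. EnzR EVs 3 was closer to PBS 2 than to PBS 3, and both libraries numbered 1 were rich in Rn45s. The number was therefore used as a block only in an alternative fit. No 2 libraries of a group agreed within sampling noise (lowest chi-square per gene 4.48, PBS 2 and 3).

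The 10 genes and the lists were chosen with earlier results of these data known. The lists were written from general knowledge, and 221 of 225 listed genes were found, 7 of them by an older symbol. Genes named are the 10, the 3 with the highest mean CPM of each list, any list gene past the adjusted threshold, and the 2 genes most like each of the 10. Any other list gene was named after its values were seen. Library shares of the Rn45s-rich split were set at 10%. The result of 1 marker list is not reported here.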

Additional observations from a re-analysis of the deposited data

How the results depend on the processing

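The number of genes called at an adjusted p under 0.05 was 0 by edgeR in each comparison. DESeq2 called 8, 7 and 1 for EnzR EVs against PBS, HDL NPs against PBS and HDL NPs against EnzR EVs, and voom with sample quality weights 1990, 10 and 653, with 3, 0 and 1 of the 10 genes among them. For EnzR EVs against PBS, 1 gene was called with no filter on low counts, 1 with the replicate block and 10 without the 3 Rn45s-rich libraries, and leaving out single replicates gave 0 to 2, the 2 being without PBS 1. For HDL NPs against EnzR EVs, 1 was called on the 6 libraries compared alone and 1 without the Rn45s-rich libraries. No other setting called any of the 10 genes.

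Scaling by library size only moved the median of all genes to -0.18, 0.047 and 0.24 on the log2 scale, and values under that scaling are relative to this shift. It turned Tsg101 to -0.10 and Rab27a to -0.040 (EnzR EVs against PBS) and Cd81 to 0.067 (HDL NPs against EnzR EVs).

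Leaving out the 3 Rn45s-rich libraries reversed the following log2 fold changes. For EnzR EVs against PBS, Cd9 was 0.11, Cd63 -0.055, Cd53 0.081, Pdcd6ip 0.15 and Flot1 0.092. For HDL NPs against PBS, Cd9 was -0.021, Cd53 -0.051, Tsg101 -0.0062 and Flot1 -0.091. For HDL NPs against EnzR EVs, Cd9 was -0.13, Cd82 -0.094, Cd37 0.0065, Cd53 -0.13, Pdcd6ip -0.045, Tsg101 -0.27, Rab27a -0.054 and Flot1 -0.18. Both comparisons with EnzR EVs alone then rest on 1 EnzR EV mouse, assumed to vary like the others.

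Sample quality weights turned Cd9 to 0.028, Pdcd6ip to 0.033 and Tsg101 to -0.011 (EnzR EVs against PBS), Tsg101 to -0.0086 and Flot1 to -0.034 (HDL NPs against PBS), and Cd9 to -0.011 and Rab27a to -0.017 (HDL NPs against EnzR EVs). Cd9 was also 0.0036 with RLE size factors and 0.0056 on 6 libraries alone (EnzR EVs against PBS), and Tsg101 -0.0033 by DESeq2 and -0.041 by voom (HDL NPs against EnzR EVs). None of these reversals concerned a change called by edgeR. Cd63 and Cd53, which reversed without the Rn45s-rich libraries for EnzR EVs against PBS, were called there only by voom with sample quality weights. The cause of the reversals was not tested.

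Leaving out single replicates gave the ranges that follow for genes that reversed. For EnzR EVs against PBS they were -0.11 to 0.17 for Cd9, -0.21 to 0.0078 for Cd81, -0.060 to 0.38 for Cd37, -0.13 to 0.086 for Pdcd6ip, -0.13 to 0.19 for Tsg101 and -0.61 to 0.057 for Flot1. For HDL NPs against PBS they were -0.057 to 0.19 for Cd9, -0.24 to 0.043 for Cd82, -0.065 to 0.15 for Cd37, -0.053 to 0.20 for Cd53, -0.060 to 0.16 for Pdcd6ip, -0.0078 to 0.11 for Tsg101 and -0.10 to 0.20 for Flot1. For HDL NPs against EnzR EVs they were -0.11 to 0.19 for Cd9, -0.011 to 0.27 for Cd82, -0.37 to 0.075 for Cd37, -0.019 to 0.21 for Pdcd6ip, -0.13 to 0.19 for Tsg101 and -0.063 to 0.11 for Rab27a. Cd63 kept its direction, at 0.30 to 0.78, -0.62 to -0.36 and -1.30 to -0.83 in the 3 comparisons.

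With the replicate block, Cd37 was -0.0018 for HDL NPs against PBS, and no call of the 10 genes changed. For the comparisons with HDL NPs the same-numbered libraries did not all deviate together (correlations of 0.061, 0.29 and -0.18 with PBS and of -0.036, 0.21 and 0.12 with EnzR EVs), and the block left the count of calls at 0 in both.

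With the longest transcript as length in place of all exons, mean RPKM were 124.5 for Cd9, 53.9 for Cd81, 52.8 for Cd82, 31.3 for Cd37, 32.9 for Pdcd6ip, 12.04 for Tsg101, 84.4 for Rab27a and 78.3 for Flot1, and only Cd81 and Cd82 exchanged places. Cd63 was at 19.4 and Cd53 stayed at 336, so the folds of Cd53 over Cd9 and over Tsg101 were smaller than with all exons. Shorter transcripts were not tried. Depth was lowest in EnzR EVs 1, at 2575776 counts, and its values are the least precise.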
